A study of Mus musculus with 16 samples.

Results

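The tubulin genes and a pair of genes for tubulin polymerization-promoting proteins were followed in RNA sequencing of mouse rotator cuff muscle. The set held 10 genes of the 11710 in the count table: the alpha tubulins Tuba1a, Tuba1b, Tuba1c, Tuba4a and Tuba8, the beta tubulins Tubb5, Tubb2a and Tubb6, and Tppp and Tppp3. All 10 were found by gene symbol, and all 10 were among the 11709 genes tested. Tppp and Tppp3 were chosen by their measured interaction of strain and surgery, that is, because the log2 fold change with surgery differed between the 2 strains, so their values by strain and surgery are described without a test. The 16 samples form 4 groups of 4. They cross the inbred strain, C57BL/6J (BL6 below) or MRL/MpJ (MRL below), with the operation, which was tenectomy (removal of a stretch of tendon) together with denervation, or none. Unoperated mice of each strain are the controls, and no transgene or drug is named in the labels. Labels of the samples call the muscle supraspinatus and the text on the whole series calls it infraspinatus, so it is named rotator cuff muscle here. The labels do not say that the replicates are separate animals, so the p-values measure only the spread between these samples, which may be technical. Age, sex and the time after surgery are not in the labels.

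Microtubules are hollow polymers of alpha and beta tubulin pairs, and mammals carry several genes for each subunit whose products differ mainly in their acidic tails. In a muscle fibre microtubules form a grid beneath the membrane and around the nuclei and serve transport, nuclear placement and mechanical signalling. New tubulin is folded by prefoldin, the CCT chaperonin and the tubulin cofactors, and surplus free tubulin triggers decay of tubulin messenger RNA through the factor Ttc5, which reads the first residues of the growing tubulin chain. TPPP proteins bind and bundle microtubules. Tppp is best known from oligodendrocytes, and Tppp3 is known as a marker of cells of the tendon sheath and other connective tissue linings.

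Total counts ran from 24323862 to 43552964 per sample, and operated samples were in general the shallower ones. In BL6 the unoperated samples held 33679319 to 43552964 counts and the operated ones 26469749 to 31094642. Mitochondrially encoded genes took 12.2% to 14.2% of counts in unoperated and 17.4% to 23.8% in operated BL6 samples, and 10.97% to 11.6% in unoperated MRL and 11.8% to 24.9% in operated MRL. Genes that define muscle were high: 10 myofibre markers summed to at least 53896 CPM (counts scaled to a common library size, with TMM factors) in every sample. Operated BL6 replicate 4 and unoperated MRL replicate 1 stood apart in markers of other cells. The sum of 9 macrophage markers was 804 CPM in the first and 117 to 224 CPM in the rest of its group, and 451 CPM in the second beside 99.8 to 129 CPM. The sum of 11 tendon and sheath markers was 1778 CPM in operated BL6 replicate 4 and 495 to 556 CPM in the rest of its group. Operated MRL replicate 4 stood apart in another way: its mitochondrial share was 11.8% beside 20.06% to 24.9% in the rest of its group, and its sum of 7 endothelial markers was 333 CPM beside 649 to 786 CPM. Its counts differed from those of the other 3 samples by 233 to 301 times sampling noise (chi-square per degree of freedom), beside 44.4 to 64.4 among those 3. In operated MRL replicate 3 the sum of 6 platelet and erythrocyte markers was 5425 CPM, beside 689 to 996 CPM in the rest of its group. The fewest counts of any of the 10 genes in a sample were 27, for Tuba1c in unoperated MRL. The level of 3 counts given with the processing covers counting error only. Each SE (standard error) comes from the model and includes the spread between samples.

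The coding ends of 5 of the genes are shown first, because they separate the isotypes. Each line gives the last 45 coding bases before the stop codon, read from the GENCODE M21 transcripts of GRCm38, with the last codon in capitals.
Tuba1c: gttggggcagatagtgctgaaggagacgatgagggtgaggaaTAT
Tuba4a: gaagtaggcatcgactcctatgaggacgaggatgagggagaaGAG
Tuba8: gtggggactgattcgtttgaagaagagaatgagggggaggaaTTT
Tubb5: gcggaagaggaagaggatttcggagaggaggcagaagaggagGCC
Tubb2a: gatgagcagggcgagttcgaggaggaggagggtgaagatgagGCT
The tails are rich in glutamate codons. Tuba1c ends in a codon for tyrosine, the residue that detyrosinating enzymes remove from alpha tubulin and tubulin tyrosine ligase puts back. Tuba4a ends in a codon for glutamate and Tuba8 in one for phenylalanine. At the other end, the coding sequences begin ATGCGTGAGTGC in Tuba1c, ATGCGCGAGTGC in Tuba4a, ATGAGGGAATGC in Tuba8, ATGAGGGAAATC in Tubb5 and ATGCGCGAGATC in Tubb2a. These are the codons for the opening residues that Ttc5 recognizes.

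Tuba1a (chr15:98949837-98953703, minus strand), Tuba1b (chr15:98931425-98934565, minus strand) and Tuba1c (chr15:99029891-99038110, plus strand) lie near each other on mouse chromosome 15 and are near-identical copies. Their coding sequences were 98.3% identical for Tuba1a and Tuba1b, 97.1% for Tuba1a and Tuba1c and 97.9% for Tuba1b and Tuba1c. Of all runs of 50 bases in the transcript, 27.1% for Tuba1a, 26.2% for Tuba1b and 39% for Tuba1c occurred in no other annotated gene. For Tubb2a (chr13:34074274-34078007, minus strand) this was 50.4%, and 45.6% occurred in Tubb2b. How the authors counted reads that fit several genes is not given in the sources used here, so the split of reads among these genes is uncertain. Exons of Tuba1a and Tuba1b also overlap those of the protein-coding gene model Gm49450 on the same strand, over 473 and 426 bases. The other 6 members were at least 98.9% unique by this measure. They are Tuba4a (chr1:75214228-75219865, minus strand), Tuba8 (chr6:121210696-121226854, plus strand), Tubb5 (chr17:35833921-35838306, minus strand), Tubb6 (chr18:67390717-67402749, plus strand), Tppp (chr13:74009407-74035753, plus strand) and Tppp3 (chr8:105467493-105471526, minus strand). Coding sequences of Tuba1a and Tuba4a were 84.8% identical, of Tuba1a and Tuba8 79.1%, and of Tppp and Tppp3 56.8%.

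After tenectomy and denervation the tubulins split by isotype. Tuba1a, Tuba1b, Tuba1c, Tubb5, Tubb2a and Tubb6 rose in both strains, by 2.31-fold to 5.03-fold in BL6 and 1.49-fold to 2.72-fold in MRL, while Tuba4a fell in both. Tuba8 did not pass the test in either strain. With edgeR's quasi-likelihood test and Benjamini-Hochberg adjustment over all genes, 7 of 8 tubulins were called at an adjusted p under 0.05 in BL6 (6 higher, 1 lower) and 7 of 8 in MRL (6 higher, 1 lower). Surgery changed much of the transcriptome: 67.9% of all genes tested were called in BL6, 35.1% higher and 32.8% lower, and 45.0% in MRL, 22.3% higher and 22.7% lower. The median log2 fold change of the 8 tubulins was 1.84 in BL6 and 0.99 in MRL, beside 0.04 and 0.01 for all genes. In bulk muscle, more cells of a type and more RNA per cell cannot be told apart, nor can fewer cells and less RNA.

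Tuba1a, a widely expressed alpha tubulin abundant in developing neurons, measured 12.3, 7.71, 5.05 and 4.95 CPM in unoperated BL6 replicates 1 to 4 and 33.8, 22.4, 29.4 and 50.4 CPM in the operated ones. In MRL the unoperated samples held 13.02, 9.51, 8.03 and 11.8 CPM and the operated ones 25.7, 24.7, 37.9 and 19.9 CPM. Every operated sample lay above every unoperated sample of its strain, and replicate 4 of operated BL6 was the highest of all 16. Tuba1a rose by 2.18 ± 0.31 (SE) on the log2 scale in BL6 (adjusted p = 4.65e-05) and by 1.35 ± 0.30 in MRL (adjusted p = 0.00378).

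Tuba1b, the usual housekeeping alpha tubulin, was at 2.08 to 2.66 CPM in unoperated BL6 and 8.99 to 18.2 CPM in operated BL6. Its MRL samples ran from 2.52 to 5.62 CPM without and from 6.34 to 13.9 CPM with surgery, so the groups did not overlap in either strain. Tuba1b rose by 2.33 ± 0.31 (SE) in BL6 (adjusted p = 2.85e-05) and by 1.44 ± 0.30 in MRL (adjusted p = 0.00255). The third copy, Tuba1c, had the lowest level per kilobase of the members in unoperated BL6 and measured 0.866 to 2.07 CPM in unoperated and 3.76 to 8.93 CPM in operated BL6. In MRL it overlapped between the groups, at 0.792 to 2.87 CPM and 2.29 to 3.87 CPM, with replicate 1 of the unoperated group the high sample. Its log2 fold change was 2.07 ± 0.41 in BL6 (adjusted p = 0.000449) and 1.05 ± 0.40 in MRL (adjusted p = 0.0435). The MRL call for Tuba1c was lost in 11 of 26 alternative analyses, with adjusted p-values up to 0.124. Without operated MRL replicate 4 the MRL value of Tuba1c was 1.01 (adjusted p = 0.0688). With the counts of the 3 copies summed, which does not cover reads given to Gm49450, the log2 fold change was 2.20 in BL6 (adjusted p = 3.42e-05) and 1.35 in MRL (adjusted p = 0.00317).

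Tubb5, a broadly expressed beta tubulin, was the beta member with the highest level per kilobase of exon in every group. It measured 44.5, 37.2, 31.3 and 28.0 CPM in unoperated BL6 and 96.0, 87.4, 86.3 and 159.9 CPM in operated BL6. In MRL it went from 69.4, 42.4, 37.0 and 54.6 CPM to 94.2, 89.6, 122.7 and 78.1 CPM. The groups did not overlap in either strain, and the high operated BL6 sample was again replicate 4. Tubb5 rose by 1.61 ± 0.24 (SE) on the log2 scale in BL6 (adjusted p = 6.05e-05) and by 0.92 ± 0.23 in MRL (adjusted p = 0.00703). Without operated BL6 replicate 4 the BL6 value was 1.35.

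Tubb2a, a beta tubulin enriched in neurons, measured 7.48, 5.89, 3.46 and 3.54 CPM in unoperated and 24.1, 17.05, 18.5 and 25.7 CPM in operated BL6. Its MRL values were 6.17, 3.68, 3.35 and 5.88 CPM without surgery and 13.4, 11.4, 16.8 and 10.4 CPM with it. Operated samples were above unoperated ones throughout, and the unoperated ranges of the strains overlapped. Tubb2a rose by 2.07 ± 0.27 (SE) in BL6 (adjusted p = 2.85e-05) and by 1.45 ± 0.27 in MRL (adjusted p = 0.00163). Tubb6, a beta tubulin known to be raised in regenerating and dystrophic muscle, ran from 11.4 to 19.6 CPM in unoperated and from 25.2 to 40.4 CPM in operated BL6. In MRL it ran from 14.1 to 23.5 CPM and from 26.8 to 31.3 CPM, again without overlap. It had the smallest rises of the 6 genes, 1.21 ± 0.19 in BL6 (adjusted p = 9.39e-05) and 0.57 ± 0.19 in MRL (adjusted p = 0.0234). The MRL call for Tubb6 was lost with total-count scaling (adjusted p = 0.0640) and without unoperated MRL replicate 2 (0.0610) or replicate 3 (0.0791). Over the tubulins, operated and unoperated samples did not overlap for 6 of 8 genes in BL6, where 56.8% of all genes tested did not, and for 6 of 8 in MRL, where 33.7% did not.

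Tuba4a and Tuba8 made up most of the alpha tubulin message in this muscle. Tuba4a, an isotype abundant in striated muscle, measured 702, 773, 942 and 918 CPM in unoperated BL6 and 500.0, 782, 465 and 308 CPM in operated BL6. In MRL the unoperated samples held 1038, 1136, 1150.2 and 1173 CPM and the operated ones 586, 689, 616 and 779.8 CPM. The MRL groups were well apart, and in BL6 replicate 2 of the operated group lay among the unoperated values. Tuba4a fell by 0.70 ± 0.21 (SE) on the log2 scale in BL6 (adjusted p = 0.00893) and by 0.75 ± 0.21 in MRL (adjusted p = 0.0113). Exons of Tuba4a overlap those of Stk16 on the opposite strand over 1379 bases, and whether counting used strand is not given in the sources used here. Stk16, a kinase gene named here after its values were seen, was at 19.6 ± 1.28 CPM (SD, n = 4) in unoperated and 27.7 ± 2.28 CPM in operated BL6, and at 22.4 ± 1.46 and 28.4 ± 1.45 CPM in MRL.

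Tuba8, an isotype known from heart, skeletal muscle and testis, measured 271, 311, 325 and 318 CPM in unoperated BL6 and 260.4, 328, 213 and 128 CPM in operated BL6. In MRL it was at 256, 252, 220.2 and 253 CPM without and 213, 245, 168 and 169.7 CPM with surgery. Operated samples spread widely and overlapped the unoperated ones in both strains. The log2 fold change was -0.40 ± 0.21 (SE) in BL6 (adjusted p = 0.105) and -0.30 ± 0.21 in MRL (adjusted p = 0.248). In BL6 the value rested on single samples: it was -0.61 (adjusted p = 0.0132) without operated replicate 2 and -0.21 (adjusted p = 0.260) without operated replicate 4. With total-count scaling Tuba8 was called in BL6 (adjusted p = 0.0493). Tuba8 exons overlap an antisense gene model over 368 bases.

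**Figure D1:**
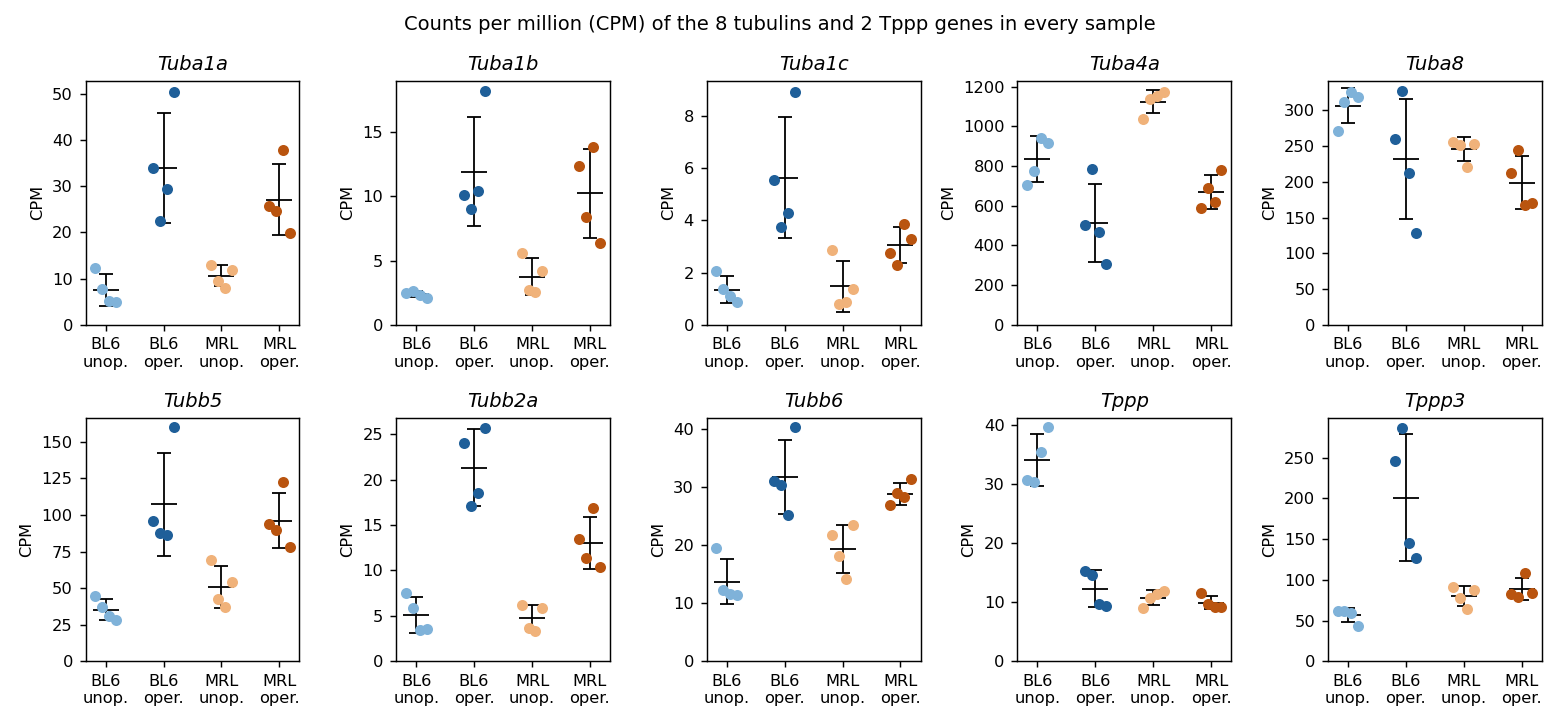
CPM of the 10 genes in every sample (points, replicates 1 to 4 from left to right), with the group mean as a horizontal line and whiskers of 1 SD; each panel has its own linear axis from 0. Operated samples lie above unoperated ones for Tuba1a, Tuba1b, Tubb5, Tubb2a and Tubb6 in both strains, whereas Tuba4a is lower after surgery, Tppp is high only in unoperated BL6 and Tppp3 is highest in operated BL6.

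The share of each isotype within a sample does not depend on the scaling between samples, and it was set per kilobase of exon so that genes of unlike length could be compared. Tuba1a, Tuba1b and Tuba1c together made up 1.71% ± 0.826 (SD, n = 4) of alpha tubulin message in unoperated BL6 and 11.8% ± 7.72 in operated BL6. The range in operated BL6 was 5.03% to 22.9%, with the top value in replicate 4. In MRL the share was 2.03% ± 0.601 without and 7.63% ± 2.60 with surgery. Tuba4a gave 61.3% ± 2.18 and 50.7% ± 4.44 of alpha tubulin message in BL6 and 72.2% ± 2.36 and 62.1% ± 5.41 in MRL. Tuba8 gave 37.0% ± 1.58 and 37.5% ± 4.45 in BL6 and 25.8% ± 1.83 and 30.3% ± 4.88 in MRL. Tuba1a, Tuba1b and Tuba1c were thus the minority in every sample, and their share in each operated sample exceeded that in each unoperated sample. These shares are descriptions and were not tested.

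The mean of the summed alpha messages was lower and that of the summed beta messages higher in the operated group of each strain, a description without a test. Per kilobase, the 5 alpha tubulins summed to 367 ± 38.8 CPM (SD, n = 4) in unoperated and 269 ± 80.9 CPM in operated BL6, and to 421 ± 14.3 and 290.1 ± 20.8 CPM in MRL. The alpha sums overlapped in BL6 (319 to 403 CPM unoperated, 181 to 375 CPM operated) and did not in MRL. All 6 beta tubulins in the table, that is the 3 members with Tubb4b, Tubb2b and Tubb4a, summed to 65.2 ± 7.86 and 128 ± 14.2 CPM per kilobase in BL6 and to 82.6 ± 9.02 and 110.0 ± 9.79 CPM in MRL, without overlap in either strain. Tubb4b, which is outside the chosen set, gave 68.8% ± 3.99 of the beta message in unoperated BL6 and 52.2% ± 10.7 in operated BL6, and 67.7% ± 5.05 and 54.3% ± 6.14 in MRL. Tubb5 gave 16.1% ± 1.41 and 25.2% ± 7.41 in BL6 and 18.3% ± 3.42 and 26.3% ± 4.49 in MRL. Tubb2a gave 4.74% ± 1.26 and 10.3% ± 1.67 in BL6 and 3.54% ± 0.754 and 7.35% ± 1.45 in MRL.

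**Figure D2:**
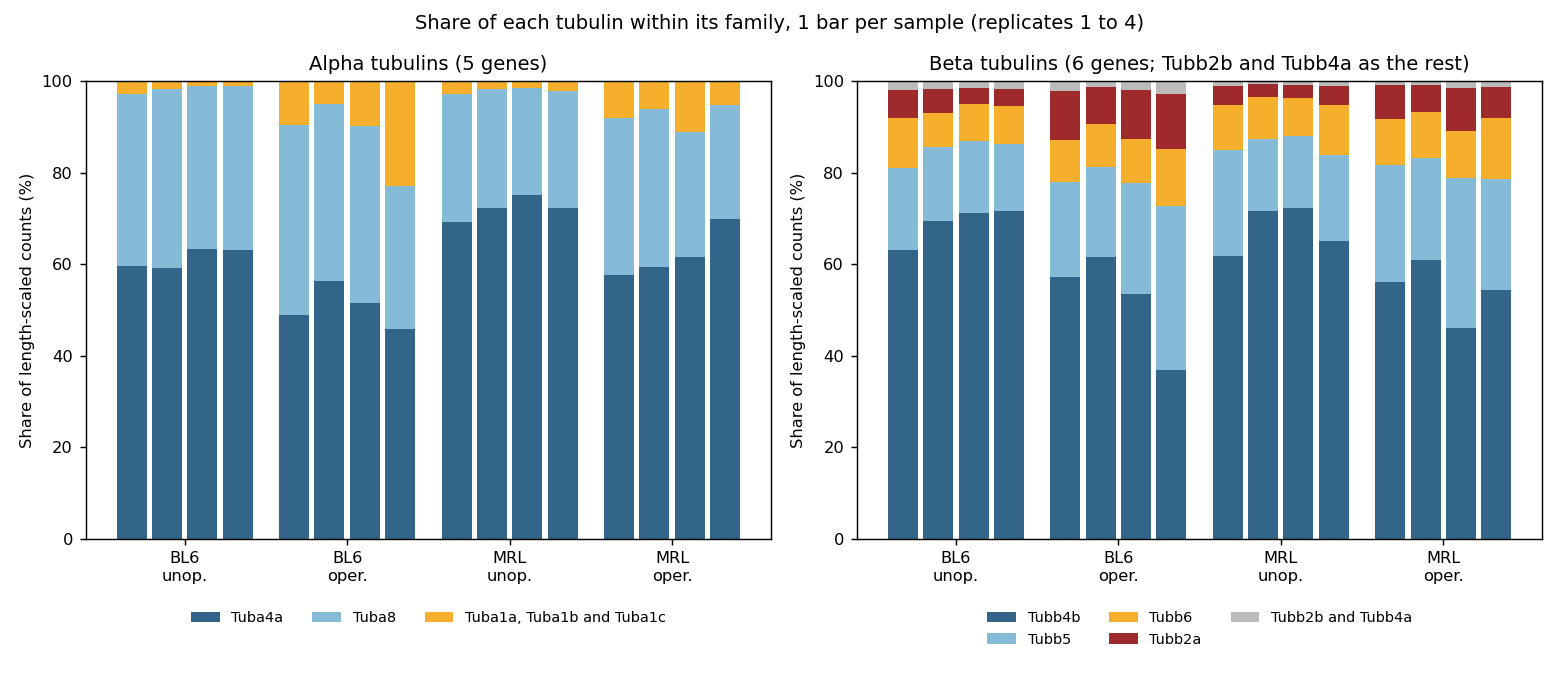
Stacked bars give the share (percent, linear axis from 0 to 100) of each gene in the length-scaled alpha tubulin counts (left) and beta tubulin counts (right) of a sample, with 1 bar for each replicate of the 4 groups. The band of Tuba1a, Tuba1b and Tuba1c is thin in unoperated samples and wider in operated ones, up to 22.9% in operated BL6 replicate 4, and the Tubb4b band is narrower in operated samples (group means of 52.2% and 54.3%) than in unoperated ones (68.8% and 67.7%).

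The question of the design is whether the strains answer the operation differently, and for the tubulins no such difference passed the test. The interaction, the log2 fold change in MRL minus that in BL6, was below 0 for the 6 tubulins that rose: -0.83 ± 0.42 (SE) for Tuba1a, -0.89 ± 0.42 for Tuba1b, -1.01 ± 0.56 for Tuba1c, -0.69 ± 0.33 for Tubb5, -0.62 ± 0.37 for Tubb2a and -0.64 ± 0.27 for Tubb6. It was -0.05 ± 0.30 for Tuba4a and 0.10 ± 0.30 for Tuba8. None of the 8 was called by edgeR's quasi-likelihood test (adjusted p from 0.277 to 0.938), and none by DESeq2 or limma voom. At an unadjusted p under 0.05 there were 2, Tuba1b and Tubb6, where 15.7% of all genes were. Few genes were called at all in this comparison, 0.248% of those tested, and a p that misses the threshold does not show that the strains respond alike. Leaving out operated BL6 replicate 4 and unoperated MRL replicate 1 together brought the interaction of Tubb5 to -0.23, that of Tuba1b to -0.34 and that of Tuba1c to -0.14. Without unoperated MRL replicate 1 alone it was -0.47 for Tuba1c, and without operated BL6 replicate 4 alone it was -0.42 for Tubb5. Other omissions moved it further from 0. Without unoperated BL6 replicate 1 it was -1.18 for Tuba1a, -1.30 for Tuba1c and -0.85 for Tubb6. Without operated MRL replicate 3 it was -1.07 for Tuba1b and -0.83 for Tubb5. None of the 8 was called in any of these fits.

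Between the strains themselves none of the 8 tubulins was called, either among unoperated samples (10.4% of all genes were called) or among operated ones (12.9%). Without surgery, 3 tubulins had an unadjusted p under 0.05, Tuba1b, Tubb5 and Tubb6 (24.3% of all genes had), and their log2 differences, MRL minus BL6, were 0.66 ± 0.30 (SE), 0.53 ± 0.23 and 0.50 ± 0.19. Tuba4a was higher in each unoperated MRL sample than in any unoperated BL6 sample, with a log2 difference of 0.43 ± 0.21 (adjusted p = 0.227). Tuba8 was lower in each, with -0.32 ± 0.21 (adjusted p = 0.385). Those were the 2 of 8 tubulins whose unoperated groups did not overlap, where 25.1% of all genes tested did not. A fit to the unoperated groups alone called both, Tuba4a at an adjusted p of 0.0189 and Tuba8 at 0.0308. That fit called more genes in general, 1210 higher and 1228 lower of 11701, beside 588 and 628 of 11709 with all samples. Among operated samples 2 had an unadjusted p under 0.05 (26.7% of all genes had), Tuba1c at -0.89 ± 0.39 and Tubb2a at -0.71 ± 0.26 (adjusted p = 0.0879 for Tubb2a). Tubb2a was the 1 of 8 tubulins whose operated groups did not overlap, where 13.6% of all genes did not. DESeq2 and limma voom called it, at adjusted p-values of 0.0484 and 0.0330.

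**Figure D3:**
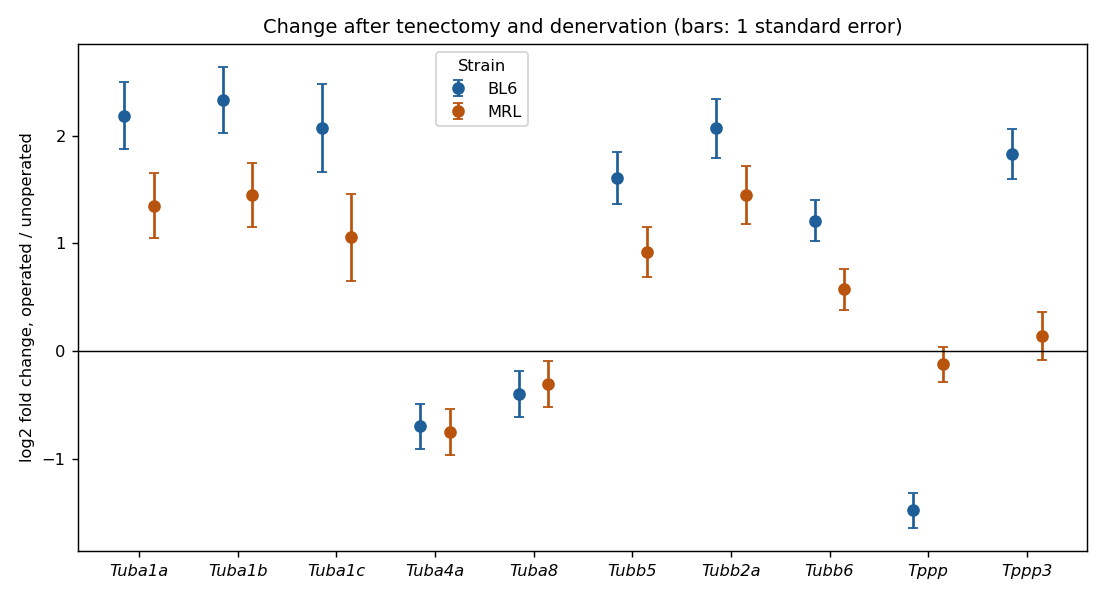
Log2 fold change of operated over unoperated samples for each gene, by strain, with whiskers of 1 standard error from the model. The 6 tubulins that rose sit above 0 in both strains, Tuba4a and Tuba8 sit below 0, and Tppp and Tppp3, chosen for this contrast, are far from 0 in BL6 (-1.48 and 1.83) and near 0 in MRL (-0.12 and 0.14).

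Tppp, which encodes the brain-type polymerization-promoting protein, had 1 high group. It measured 30.7, 30.4, 35.5 and 39.7 CPM in unoperated BL6 and 15.3, 14.6, 9.70 and 9.44 CPM in operated BL6. In MRL it was at 8.96, 10.8, 11.4 and 11.9 CPM without surgery and 11.6, 9.68, 9.20 and 9.21 CPM with it. Each unoperated BL6 sample was above all 12 others, and the other groups overlapped one another. In order of the mean, unoperated BL6 (34.1 ± 4.40 CPM, SD, n = 4) was followed by operated BL6 (12.3 ± 3.13), unoperated MRL (10.8 ± 1.31) and operated MRL (9.91 ± 1.13). The last 3 groups lay within each other's spread. As a description, the log2 fold change with surgery was -1.48 ± 0.16 (SE) in BL6 and -0.12 ± 0.16 in MRL, an interaction of 1.35 ± 0.23, and the log2 difference of MRL from BL6 was -1.66 ± 0.16 without surgery and -0.31 ± 0.16 with it. In the authors' deposited table the log2 fold change of Tppp was -1.39 for surgery in BL6 and -0.22 in MRL.

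Tppp3, the homologue known from tendon sheath cells, had the opposite profile. It measured 62.2, 61.4, 59.8 and 43.3 CPM in unoperated BL6 and 246, 287, 145 and 126 CPM in operated BL6. Its MRL values were 91.4, 77.6, 64.6 and 88.0 CPM without surgery and 83.2, 79.0, 108 and 84.0 CPM with it. All operated BL6 samples were above the 12 others, all unoperated BL6 samples were the lowest, and the MRL groups overlapped. The group means, in order, were 201 ± 77.5 CPM (SD, n = 4) in operated BL6, 88.6 ± 13.3 in operated MRL, 80.4 ± 12.1 in unoperated MRL and 56.7 ± 8.96 in unoperated BL6. Both MRL groups lay within each other's spread. As a description, the log2 fold change with surgery was 1.83 ± 0.23 (SE) in BL6 and 0.14 ± 0.22 in MRL, an interaction of -1.69 ± 0.32, and MRL differed from BL6 by 0.50 ± 0.23 without and -1.18 ± 0.23 with surgery. Operated BL6 replicate 4, the sample rich in macrophage and tendon markers, had the lowest Tppp3 of its group, and without it the BL6 value was 1.99. In the authors' deposited table the log2 fold change of Tppp3 was 1.87 for surgery in BL6 and 0.07 in MRL.

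The averages over both strains and over both surgical states are not fixed by how these 2 genes were chosen, so they were tested. The tests use the same samples as the choice, and so the same spread between replicates. Their p-values for Tppp and Tppp3 are therefore not independent of the choice. Averaged over strains, Tppp fell by 0.80 ± 0.11 (SE) on the log2 scale with surgery (adjusted p = 2.42e-05) and Tppp3 rose by 0.98 ± 0.16 (adjusted p = 6.79e-05). All 8 tubulins were called in this comparison, 6 higher and 2 lower, where 72.6% of all genes were called, 37.3% higher and 35.3% lower. With Tppp and Tppp3, which were chosen from these data, all 10 members were called, 7 higher and 3 lower. Tuba8 was among them at -0.35 ± 0.15 (adjusted p = 0.0456), a call lost in 11 of 25 alternatives with adjusted p-values up to 0.0875. Averaged over surgery, none of the 8 tubulins was called between strains, where 17.8% of all genes were, 8.61% as lower. MRL was lower than BL6 in Tppp by 0.98 ± 0.12 on the log2 scale (adjusted p = 1.14e-05), the 1 member of 10 called. For Tppp3 this difference was -0.34 ± 0.16 (adjusted p = 0.164), and it was -0.42 (adjusted p = 0.0418) without operated BL6 replicate 4. For both genes the averages join unlike effects in the 2 strains.

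The promoters of genes that moved in unlike ways are shown next, from RefSeq's GRCm38.p6 table, which held 8 of the 10 members. Each runs from 250 bases before to 50 bases after the start site and reads along the gene's own strand. Capitals mark matches to the motifs, each searched on both strands. They were the TATA box as TATAAA, one form of the E-box as CAGCTG, the CCAAT box by its own letters, the GC box as GGGCGG, the MEF2 site and the CArG box.
Tuba1a, chr15:98953452-98953751, minus strand: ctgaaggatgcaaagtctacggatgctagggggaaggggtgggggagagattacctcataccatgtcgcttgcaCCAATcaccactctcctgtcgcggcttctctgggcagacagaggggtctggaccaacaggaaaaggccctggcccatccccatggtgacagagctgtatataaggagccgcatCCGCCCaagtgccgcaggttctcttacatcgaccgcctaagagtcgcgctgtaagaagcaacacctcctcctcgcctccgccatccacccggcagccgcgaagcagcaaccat
Tubb5, chr17:35838252-35838551, minus strand: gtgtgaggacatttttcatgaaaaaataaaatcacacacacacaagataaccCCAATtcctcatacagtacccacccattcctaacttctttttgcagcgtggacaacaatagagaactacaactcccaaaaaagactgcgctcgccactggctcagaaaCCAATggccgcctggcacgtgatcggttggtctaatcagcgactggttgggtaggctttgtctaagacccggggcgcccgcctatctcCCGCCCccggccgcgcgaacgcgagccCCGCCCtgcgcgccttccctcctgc
Tuba4a, chr1:75219245-75219544, minus strand: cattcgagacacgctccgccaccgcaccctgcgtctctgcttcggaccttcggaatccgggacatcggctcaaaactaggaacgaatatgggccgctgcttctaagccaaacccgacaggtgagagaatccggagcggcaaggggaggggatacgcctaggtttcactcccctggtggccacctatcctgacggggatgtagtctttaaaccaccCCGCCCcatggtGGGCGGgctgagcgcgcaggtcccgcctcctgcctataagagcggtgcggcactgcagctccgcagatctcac
Tppp, chr13:74009169-74009468, plus strand: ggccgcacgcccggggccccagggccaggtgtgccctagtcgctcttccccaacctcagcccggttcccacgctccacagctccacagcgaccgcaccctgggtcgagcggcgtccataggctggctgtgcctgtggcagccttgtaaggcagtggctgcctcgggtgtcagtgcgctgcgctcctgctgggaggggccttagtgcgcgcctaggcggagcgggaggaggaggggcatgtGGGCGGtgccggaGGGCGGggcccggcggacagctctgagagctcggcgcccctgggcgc
Tuba1a held 1 CCAAT and 1 GGGCGG match, Tubb5 held 2 of each, and Tuba4a and Tppp held 2 GGGCGG matches each. Among all 32851 promoters of this length, 35.7% held GGGCGG, 37.4% CCAAT, 16.3% CAGCTG, 13.6% TATAAA, 1.63% the CArG box and 0.557% the MEF2 site. None of these 4 windows held a match to the other motifs searched. A match describes the window and is not a binding site.

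Other genes of the microtubule system were taken from 6 lists, and 0 genes of any list were called in the interaction by edgeR's quasi-likelihood test. Only 0.248% of all genes tested were called there, so a list with 0 calls is not set apart from them. Of 13 other tubulin family genes, 5 were tested. In BL6, 3 were called higher and 1 lower, and in MRL 1 higher and 2 lower. Tubb4b, a beta tubulin of cilia and many other cells, rose from 93.2 ± 6.77 to 139.7 ± 33.4 CPM (SD, n = 4) in BL6, by 0.58 ± 0.15 (SE) on the log2 scale, and its MRL change was 0.11 ± 0.15 (adjusted p = 0.583). Tubb2b, whose reads are hard to tell from those of Tubb2a, rose by 1.66 in BL6 and 0.88 in MRL. The centriole gene Tubd1 fell by 0.55 in BL6 and 0.76 in MRL. Without the 2 samples that stood apart, only 2 of these 5 were called in BL6, both higher. Between operated strains, edgeR's quasi-likelihood test called 2 of the 5, both lower in MRL, where 12.9% of all genes were called. They were Tubb2b at -1.03 ± 0.31 (SE, adjusted p = 0.0395) and Tubb4a at -1.13 ± 0.36 (adjusted p = 0.0475). The operated groups of the strains did not overlap for Tubb2b and overlapped for Tubb4a. Without operated MRL replicate 4 only 1 of the 5 was called there.

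The list of tubulin folding and autoregulation genes was tested in full, 23 of 23. In BL6, 11 rose and 1 fell, and in MRL 6 rose and none fell (7 had an unadjusted p under 0.05). Of all genes tested, 35.1% rose in BL6 and 22.3% in MRL. The median log2 fold change was 0.24 in BL6 and 0.10 in MRL. Pfdn5, a prefoldin subunit, went from 77.4 ± 3.55 to 183.9 ± 15.5 CPM (SD, n = 4) in BL6 and from 97.9 ± 10.5 to 159 ± 33.7 CPM in MRL, log2 fold changes of 1.25 and 0.70. The tubulin-binding cofactor Tbcb rose by 1.11 in BL6 and 0.71 in MRL. Vbp1, another prefoldin subunit, fell by 0.62 in BL6 and was at -0.25 in MRL, where it was not called. The chaperonin subunits Tcp1 and Cct8, the 2 genes of the list with the highest CPM, were not called in either strain, with log2 fold changes of -0.18 and 0.13 in BL6. Ttc5, the reader of new tubulin chains and named here after its values were seen, rose by 0.73 in BL6 (adjusted p = 0.00133) and 0.45 in MRL (adjusted p = 0.0355).

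Enzymes that modify tubulin went both ways. Of 18 tested of 23, 6 rose and 5 fell in BL6, and 3 rose and 3 fell in MRL. Ttll7, a polyglutamylase of beta tubulin, went from 169 ± 25.0 to 52.5 ± 24.6 CPM (SD, n = 4) in BL6 and from 158 ± 30.6 to 67.6 ± 28.6 CPM in MRL, log2 fold changes of -1.69 and -1.23. Ttll4, another glutamylase, fell by 0.54 in BL6 and was at 0.02 in MRL. Sirt2, a tubulin deacetylase, fell by 0.47 in BL6 and 0.36 in MRL. The acetyltransferase Atat1 and the glycylase Ttll3 rose in BL6 by 0.93 and 1.02 on the log2 scale, and their MRL values of 0.59 and 0.57 missed the threshold (adjusted p = 0.0507 and 0.0799).

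Microtubule-associated and transport genes also went both ways. Of 37 tested microtubule-associated and plus-end genes, 10 rose and 16 fell in BL6, and 7 rose and 10 fell in MRL. Map4, the chief microtubule-associated protein of muscle, fell by 0.56 in BL6 and was at -0.20 in MRL, where it was not called. The linker Dst fell by 1.38 in BL6 and was at -0.53 in MRL (adjusted p = 0.0897). The plus-end proteins Clip4 and Clip1 fell by 2.01 and 1.55 in BL6 and by 1.22 and 1.04 in MRL, whereas Clip3 and Gas2l1 rose by 1.47 and 1.32 in BL6. In MRL Gas2l1 rose by 0.77, and Clip3 was at 0.69 and not called (adjusted p = 0.0764). Of 35 tested kinesin and dynein genes, 9 rose and 16 fell in BL6, and 7 rose and 9 fell in MRL. The kinesins Kif1c, Kif1b, Kif16b and Kif5b fell by 1.56, 1.51, 1.96 and 1.79 in BL6. In MRL Kif1c, Kif1b and Kif16b fell by 0.91, 0.75 and 0.92, and Kif5b was at -0.64 and not called (adjusted p = 0.0672). The dynein light chain Dynll1 rose by 1.85 in BL6 and 1.35 in MRL. Of 8 tested destabilizing and severing genes, 2 rose and 3 fell in BL6 and 2 rose and 2 fell in MRL. The severing enzymes Spast and Fign fell by 1.18 and 1.39 in BL6. In MRL Spast fell by 0.66, and Fign was at -0.37 and not called (adjusted p = 0.255). Stmn2, a tubulin-sequestering protein of growing axons, rose by 1.33 in BL6 and 1.11 in MRL. Over all genes, 35.1% were called higher and 32.8% lower in BL6, and 22.3% and 22.7% in MRL; the balance of rises and falls in these lists was not tested.

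**Figure D4:**
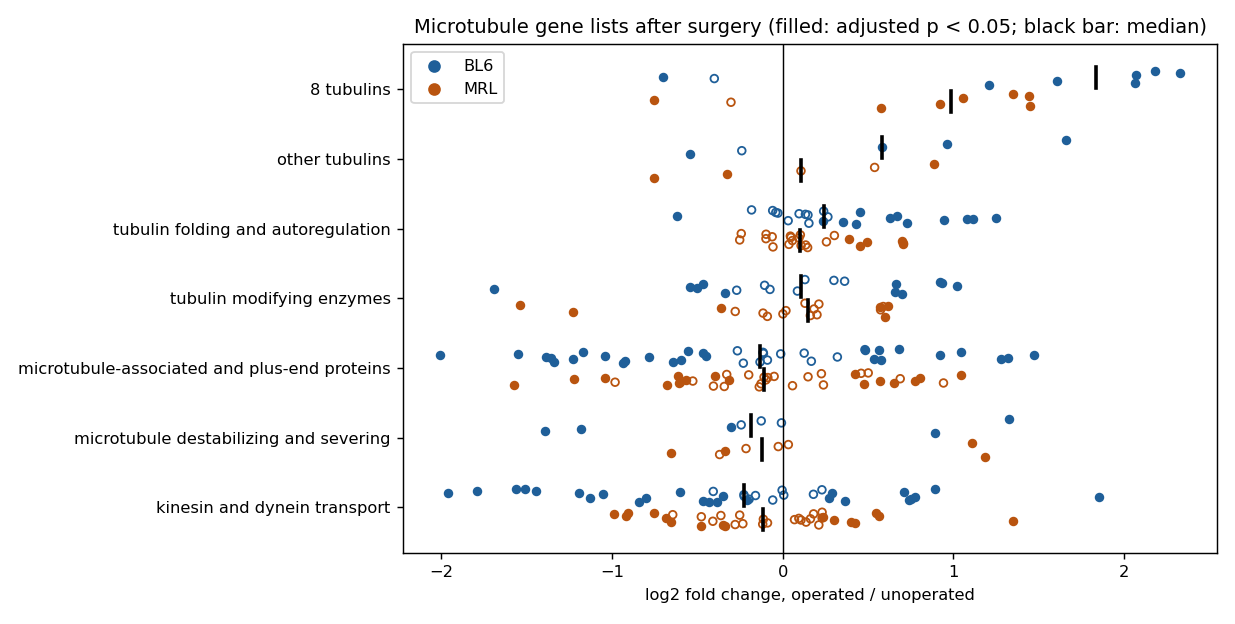
Log2 fold change with surgery for every tested gene of the 8 tubulins and the 6 microtubule gene lists, BL6 in blue and MRL in orange, with filled points called at an adjusted p under 0.05, open points not called, and black bars at the median of each list. The 8 tubulins have medians of 1.84 and 0.99, while the medians of the transport list are -0.23 in BL6 and -0.11 in MRL.

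The genes whose profiles over the 16 samples lay nearest to those of Tppp and Tppp3 were found by the root mean square difference of centred log2 CPM, over 9624 genes of at least 5 CPM on average. For Tppp they were Gbp7 (0.32), Nedd1 (0.33) and Crybg3 (0.34), where the median gene was at 0.78 and Tppp itself had an SD of 0.75. Nedd1, which recruits the gamma-tubulin ring complex to spindles and centrosomes, measured 24.6 ± 0.610 CPM (SD, n = 4) without and 11.3 ± 1.29 with surgery in BL6, and 13.2 ± 1.62 without and 8.58 ± 1.35 with surgery in MRL. For Tppp3 the nearest were Ehd1 (0.29), Rin3 (0.31) and Csrnp1 (0.33), where Tppp3 had an SD of 0.71. Ehd1, a membrane-recycling protein, was at 34.2 ± 2.12, 88.5 ± 22.8, 40.9 ± 6.05 and 61.3 ± 16.4 CPM in the same order of groups. Likeness of this kind is a description.

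Summed markers of tendon and sheath, Schwann, adipocyte, endothelial and smooth muscle cells were on average higher in the operated group of each strain, where 35.1% of all genes were called higher in BL6 and 22.3% in MRL. Tendon and sheath markers summed to 224 ± 59.5 CPM (SD, n = 4) in unoperated and 838.5 ± 627 CPM in operated BL6, and to 351 ± 127 and 656 ± 247 CPM in MRL, with 9 of 11 genes called higher in BL6 and 3 of 11 in MRL. Schwann cell and perineurium markers summed to 133 ± 17.97 and 471 ± 176 CPM in BL6 and to 137 ± 33.8 and 278 ± 127 CPM in MRL, with 10 of 10 and 7 of 10 called higher. Macrophage markers ranged from 48.0 to 180.2 CPM in unoperated and from 117 to 804 CPM in operated BL6, and 7 of 9 were called higher there and 1 of 9 in MRL. The MRL counts for tendon and macrophage markers were thus near or below the share of all genes. Without the 2 samples that stood apart the MRL counts were 8 of 9 for macrophage and 6 of 11 for tendon and sheath markers. Without operated MRL replicate 4 that for macrophage markers was 0 of 9. Of all 11709 genes, 3411 and 2885 were called higher in MRL in these fits, in the same order. Adipocyte markers summed to 1313.5 ± 123 and 2375 ± 313 CPM in BL6 and to 1175.0 ± 82.2 and 2477 ± 403 CPM in MRL, with 6 of 7 called higher in each strain. Endothelial markers summed to 345 ± 55.3 and 733 ± 102 CPM in BL6 and to 272 ± 41.8 and 619 ± 199 CPM in MRL, with 6 of 7 and 7 of 7 called higher. Smooth muscle and pericyte markers summed to 529.8 ± 30.04 and 1138 ± 281 CPM in BL6 and to 447 ± 66.2 and 960.1 ± 251 CPM in MRL, with 6 of 7 and 5 of 7 called higher. Myofibre markers summed to 141370.0 ± 21199 and 90319 ± 33159 CPM in BL6 and to 111050.0 ± 5567 and 81001 ± 9538 CPM in MRL. Of these 10 genes, 1 was called higher and 4 lower in BL6, and 1 higher and 2 lower in MRL. Satellite and regenerating fibre markers summed to 55.9 ± 9.98 and 67.8 ± 24.8 CPM in BL6 and to 45.2 ± 2.71 and 69.5 ± 20.3 CPM in MRL. Of the 6 measured, 2 were called higher and 2 lower in BL6, and 3 higher and 1 lower in MRL. Of the 10 markers of dividing cells only Pcna and Mcm2 were measured. Their sum was 19.8 ± 0.482 and 17.6 ± 2.13 CPM in BL6 and 15.7 ± 0.429 and 13.6 ± 0.654 CPM in MRL. Platelet and erythrocyte markers summed to 644 ± 484 and 591 ± 215 CPM in BL6 and to 854 ± 654 and 1999 ± 2288 CPM in MRL. Of these 6 genes, 2 were called higher in BL6 and 3 in MRL, and none lower. No measured marker of these lists was at 0 in any group.

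Operated BL6 replicate 4 was the highest of its group in Tuba1a, Tuba1b, Tuba1c, Tubb5, Tubb2a and Tubb6 and the lowest in Tuba4a, Tuba8, Tppp and Tppp3. Without this sample and unoperated MRL replicate 1, 7 of 8 tubulins were still called in BL6 and 7 of 8 in MRL. Over all 11709 genes that fit called 3823 higher and 3698 lower in BL6, in place of 4107 and 3843. In MRL it called 3411 higher and 3024 lower, in place of 2609 and 2663. Operated MRL replicate 4 was the lowest of its group in Tuba1a, Tuba1b, Tubb5 and Tubb2a and the highest in Tuba4a. Without it, 7 of 8 were called in BL6 and 6 of 8 in MRL, where Tuba1c was lost. The log2 fold change in MRL was then 1.47 for Tuba1a, 1.62 for Tuba1b, 1.54 for Tubb2a and -0.84 for Tuba4a. Over all 11709 genes the fit without operated MRL replicate 4 called 4197 higher and 3949 lower in BL6. In MRL it called 2885 higher and 3260 lower. Operated MRL replicate 3 was the highest of its group in Tuba1a, Tuba1b, Tuba1c, Tubb5 and Tubb2a. Without it the MRL values were smaller, 1.14 for Tuba1a, 1.26 for Tuba1b, 0.78 for Tubb5 and 1.30 for Tubb2a. These genes stayed called in MRL with any single sample left out (adjusted p at most 0.0290 by edgeR's quasi-likelihood test). The part of other cell types in the tubulin and Tppp results was not tested.

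**Figure D5:**
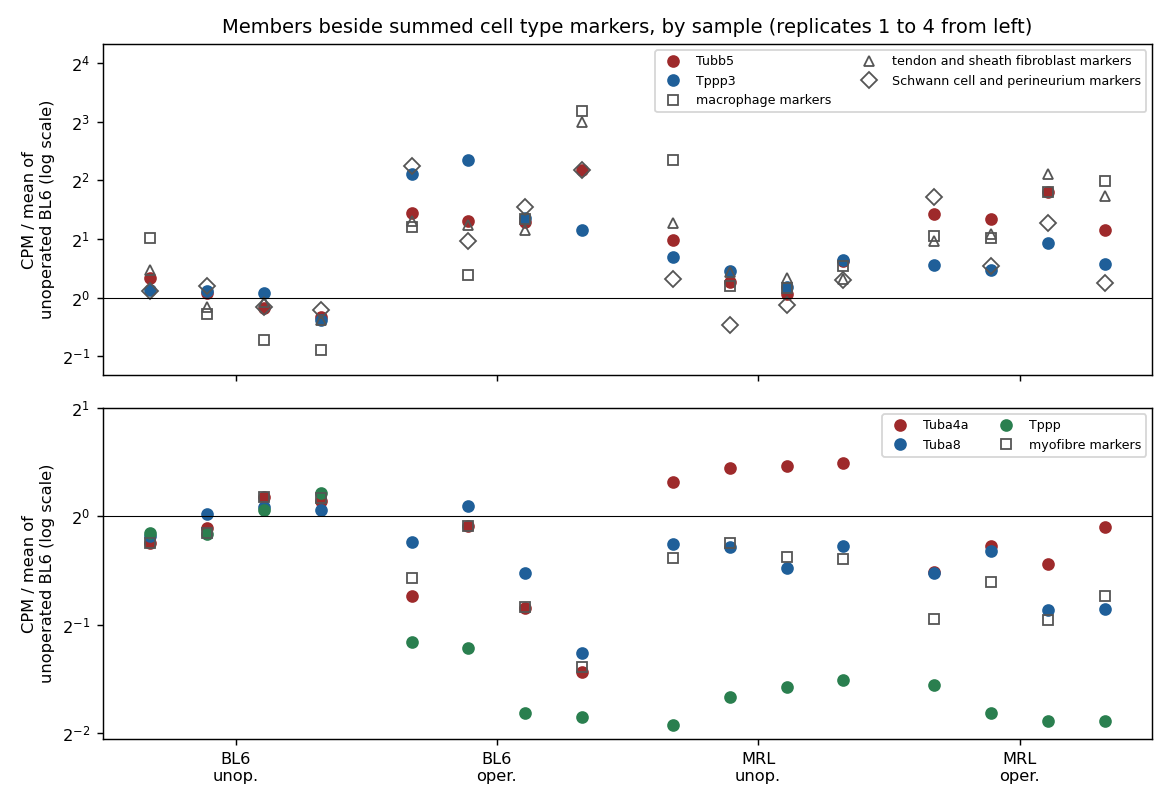
Each sample's CPM of a gene or summed marker list divided by the mean of unoperated BL6, on a log2-scaled axis, with replicates 1 to 4 from left to right in each group; the top panel shows Tubb5 and Tppp3 beside macrophage, tendon and Schwann cell markers, the lower one Tuba4a, Tuba8 and Tppp beside myofibre markers. Operated BL6 replicate 4 is highest for macrophage markers (804 CPM) and Tubb5 (159.9 CPM) but lowest of its group for Tppp3 (126 CPM), and Tppp is low in all groups but unoperated BL6.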

How the data were processed

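RNA of 16 samples was sequenced. Muscle was minced, and a column kit with DNase I gave the RNA, per the labels' protocols; libraries were made by standard Illumina protocols. The submitters' processing notes name FastQC, STAR, edgeR and the build mm10, with no role or order; the counting program, annotation and use of strand are not given in the sources used here. The authors deposited raw counts per gene, 1 column per sample, and a second table with log2 fold changes, an average log2 CPM, p-values and false discovery rates for 4 comparisons, per the file headers.

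From the counts, edgeR 4.0.16 (R 4.3.3) was run with TMM scaling and filterByExpr at a minimum count of 10, which removed 1 gene. Its quasi-likelihood fit used all 16 samples together, with a mean for each of the 4 groups, and p-values were adjusted by Benjamini-Hochberg over 11709 genes. Genes were called at an adjusted p under 0.05. The standard error is the log2 fold change divided by the square root of F. Log2 CPM used a prior count of 2. The fit was tested on simulated counts. Replicates differed by at least 14.8 times sampling noise (chi-square per degree of freedom), so none was a repeat deposit. Total counts were 24323862 to 43552964 per sample, and 3 counts correspond to at most 0.123 CPM.

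Members and gene lists were chosen with earlier results of these data known. Named genes are the 10 members. From each list they are the 2 with the highest mean CPM, the called genes with the 2 largest rises and the 2 largest falls for surgery in BL6, of which the text gives some, and any called in the interaction. The 3 nearest profiles of Tppp and of Tppp3 were added. Stk16 and Ttc5 are outside this rule. Alternatives were other scalings, filters, DESeq2 1.42.0, limma 3.58.1 (voom), a replicate block, fewer groups, samples left out, and the counts of Tuba1a, Tuba1b and Tuba1c summed. Coordinates and lengths are from GENCODE M21 (GRCm38), 1-based, to which all 10 gene IDs matched. Uniqueness is the share of a transcript's 50-base runs found in no other annotated gene. Isotype shares were computed on counts and per kilobase of exon.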

Additional observations from a re-analysis of the deposited data

Results flagged for a closer look

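Within groups of 4, a sample was picked out when its gap to the nearest of the others was a larger share of the group's range than Dixon's 95% critical value allows. Of 40 groups (10 genes in 4 groups), 5 had such a sample, where chance gives about 1 in 20.

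In operated BL6, replicate 4 was far above the others in Tuba1b (18.2 CPM) and Tubb5 (159.9 CPM). The same sample had the highest macrophage and tendon marker sums of its group, 804 and 1778 CPM. Without it the log2 fold change with surgery in BL6 was 2.04 for Tuba1b (adjusted p = 7.56e-05) and 1.35 for Tubb5 (adjusted p = 0.000140) by edgeR's quasi-likelihood test, both still called.

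In unoperated BL6, replicate 1 was high in Tubb6 (19.6 CPM, beside 11.4 to 12.3 CPM in the others), and its macrophage marker sum of 180.2 CPM was the highest of its group. In the same group Tppp3 was low in replicate 4 (43.3 CPM, beside 59.8 to 62.2 CPM). In unoperated MRL, Tuba8 was low in replicate 3 (220.2 CPM, beside 252 to 256 CPM). The part of other cell types in these values was not tested.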

How the results depend on the processing

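Over all alternatives, 1288 of the tested values kept their direction and their side of the threshold, 25 lost a call, 12 gained one and 19, none of them called, changed sign; the 258 described values all stayed within their spread. Of the 8 tubulins, the number called stayed at 5 to 8 for surgery in BL6 (5 of 6 features with the 3 copies summed) and at 5 to 7 in MRL, and at 0 for the interaction in all 26 alternatives. Between unoperated strains it went from 0 to 1 with total-count scaling, 2 in a fit to the 2 groups alone, and 0 to 1 when a sample was left out (Tubb6, without BL6 replicate 1, adjusted p = 0.0171 by edgeR). Between operated strains it went from 0 to 1 with total counts, DESeq2 and limma voom, and was 0 to 1 when a sample was left out (Tuba4a, without BL6 replicate 2, adjusted p = 0.0181 by edgeR). For strain averaged over surgery it went from 1 of 10 to 2 with total counts and DESeq2, to 3 without the 2 samples that stood apart, and was 1 to 3 when a sample was left out (3 without operated BL6 replicate 4). Total-count scaling shifts the median of all genes by up to 0.18 on the log2 scale (BL6 surgery). It gives 741 higher and 313 lower calls between unoperated strains in place of 588 and 628, and 994 and 383 between operated strains in place of 890 and 617, and 1618 and 556 for strain averaged over surgery in place of 1071 and 1008. Over all genes, the interaction's 18 higher and 11 lower calls became 9 and 5 with total counts and 147 and 103 with DESeq2, and ran from 1 and 0 to 48 and 21 when a sample was left out. Fits to the 2 groups alone gave 1210 and 1228 calls between unoperated and 303 and 272 between operated strains, and surgery in MRL had 1740 and 1750 calls without operated MRL replicate 3 in place of 2609 and 2663.

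Signs that changed, all without a call, were the interaction of Tuba8 (-0.072), the unoperated strain difference of Tuba1c (-0.42) and the operated strain differences of Tuba1b (0.053), Tubb5 (0.099) and Tubb6 (0.0020) without the 2 samples, and the unoperated difference of Tubb2a (0.030) with total counts. With single samples left out the ranges were -0.22 to 0.22 for the Tuba4a and -0.10 to 0.31 for the Tuba8 interaction. Unoperated differences ranged from -0.42 to 0.40 for Tuba1c and -0.25 to 0.14 for Tubb2a. Operated differences ranged from -0.41 to 0.054 for Tuba1b, -0.30 to 0.099 for Tubb5 and -0.23 to 0.0020 for Tubb6. The cause was not tested.

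On the count scale, before division by length, Tuba1a, Tuba1b and Tuba1c made up 1.02%, 7.60%, 1.15% and 4.54% of alpha tubulin in the order unoperated BL6, operated BL6, unoperated MRL, operated MRL, beside 1.71%, 11.8%, 2.03% and 7.63% per kilobase. Tubb5 made up 65.5%, 66.4%, 67.6% and 69.3% of the 3 beta members, beside 55.0%, 54.6%, 58.1% and 58.9% per kilobase and 23.4%, 34.8%, 26.02% and 36.1% of all 6 beta tubulins, a set added after seeing the data. These follow from the lengths and the genes counted. The list counts without the 2 samples, or without operated MRL replicate 4, were likewise added after seeing the data.

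The titles give each group replicate numbers 1 to 4, but same-numbered samples did not deviate together throughout. The correlations of their deviations ran from -0.474 to 0.107 between the BL6 groups and -0.245 to 0.267 between the MRL groups. They ran from -0.11 to 0.36 between unoperated strains (mean 0.16) and -0.096 to 0.453 between operated strains (mean 0.165). Between unoperated BL6 and operated MRL they were -0.065 to 0.157, and between operated BL6 and unoperated MRL -0.269 to 0.371. With 4 pairs per comparison, this neither shows nor excludes that same-numbered samples share more than a number. With the number as a replicate block, 7 of 8 tubulins were called in BL6, 7 in MRL and 0 in the interaction, as without it, and over all genes the interaction had 1 higher and 1 lower call in place of 18 and 11.

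Depth limits the precision of genes with few counts: Tuba1c had as few as 27 counts in a sample. The authors' deposited table gives Tuba1c a log2 difference between unoperated strains of -0.33, beside 0.13 here. In the authors' deposited table the log2 fold changes with surgery in BL6 and MRL lie closer together, at 1.69 and 1.51 for Tuba1c (2.07 and 1.05 here), 1.38 and 1.13 for Tubb5 (1.61 and 0.92) and 2.06 and 1.71 for Tuba1b (2.33 and 1.44). Its operated strain differences are 0.046 for Tuba1b and 0.072 for Tubb5, beside -0.23 and -0.16 here.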
